A study of Rattus norvegicus with 30 samples.

Results

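The genes described here carry zinc, copper, magnesium and vitamins into, through or out of cells, and they were read in the ileum of rats after bariatric surgery. They were chosen by symbol. The rule took every gene of the Slc30a, Slc39a, Slc31a, Slc41a, Slc19a, Slc23a, Slc52a, Cnnm, Atp7, metallothionein (Mt1, Mt2 and Mt3) and retinol-binding protein (Rbp) families, and Slc46a1, Slc5a6, Cubn, Amn and Tcn2. A gene counted only if the array had a transcript cluster (the probe set for 1 transcript locus) named for it alone, and its brightest such cluster was used. That gave 44 of 14557 gene symbols, and 41 of the 44 passed a filter on dim genes. The remaining 3, Rbp3 of the retina, Slc30a8 of insulin granules and Slc39a12, lay below that filter, with log2 means of 1.83, 1.75 and 1.67 over all arrays. No cluster was named alone for Slc39a7, Slc39a14, Slc30a2, Mt1, Atp7a, Atp7b, Slc19a1, Slc23a2, Slc41a2, Slc41a3, Cnnm1 or Cnnm3, which were not analysed here.

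The samples were ileum from 30 male wild-type Long-Evans rats of 8 to 10 weeks, each hybridized to an array of its own, in 5 groups of 6. Rats had a Roux-en-Y gastric bypass (RYGB) or a sham for it (Sham_RYGB), a vertical sleeve gastrectomy (VSG) or a sham for that (Sham_VSG), or the latter sham together with paired feeding (Sham_VSG_PF). All rats, shams included, had a liquid diet from the day before surgery, isoflurane and an opened abdomen. The sleeve operation transected about 80% of the stomach with a stapler, and in its sham the organ was only pressed with blunt forceps. The labels give no surgical detail of the bypass, no time after surgery and no amounts eaten, so group and any difference in intake cannot be told apart outside the paired-feeding comparison. The labels call the rats of a group biological replicates.

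The ileum takes up what the upper gut leaves, and it is the known site of vitamin B12 absorption. Zinc enters enterocytes through importers of the ZIP (Slc39a) family and leaves the cytosol through exporters of the ZnT (Slc30a) family, while metallothioneins bind zinc and copper inside the cell. The zinc sensor MTF1 switches on metallothionein genes and the exporter gene Slc30a1 through metal response elements in their promoters. Vitamin A is handled by retinol-binding proteins, of which Rbp2 acts in absorptive cells. Water-soluble vitamins each have carriers of their own. Shortage of zinc, copper, thiamine, folate, vitamin A or vitamin B12 is a known complication of bariatric surgery in humans.

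The promoters of the metallothionein gene Mt2A, of Slc30a1 and of Rbp2 are shown because these genes stand for the zinc response and for vitamin A uptake in the results. They are from RefSeq (rat build GRCr8) and run from 250 bases before to 50 bases after the annotated start. Capitals in Mt2A and Slc30a1 mark matches to the core of the metal response element, searched as TGCACNC or TGCGCNC on both strands. Capitals in Rbp2 mark a match to AGGTCA, the short core bound by many nuclear receptors, also searched on both strands.
Mt2A, chr19:10838659-10838958, minus strand: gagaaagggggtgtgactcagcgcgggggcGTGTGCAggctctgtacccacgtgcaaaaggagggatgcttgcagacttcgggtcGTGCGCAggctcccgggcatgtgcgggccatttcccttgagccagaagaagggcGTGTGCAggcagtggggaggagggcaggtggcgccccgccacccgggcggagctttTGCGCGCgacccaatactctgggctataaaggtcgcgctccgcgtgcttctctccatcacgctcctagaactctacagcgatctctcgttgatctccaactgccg
Slc30a1, chr13:106021769-106022068, plus strand: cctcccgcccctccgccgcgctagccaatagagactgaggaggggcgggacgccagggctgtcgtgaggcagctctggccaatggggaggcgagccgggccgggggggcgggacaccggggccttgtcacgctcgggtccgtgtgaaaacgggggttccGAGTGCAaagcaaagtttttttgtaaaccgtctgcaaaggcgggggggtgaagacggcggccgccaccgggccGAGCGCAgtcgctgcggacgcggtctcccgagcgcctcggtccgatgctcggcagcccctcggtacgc
Rbp2, chr8:107963292-107963591, plus strand: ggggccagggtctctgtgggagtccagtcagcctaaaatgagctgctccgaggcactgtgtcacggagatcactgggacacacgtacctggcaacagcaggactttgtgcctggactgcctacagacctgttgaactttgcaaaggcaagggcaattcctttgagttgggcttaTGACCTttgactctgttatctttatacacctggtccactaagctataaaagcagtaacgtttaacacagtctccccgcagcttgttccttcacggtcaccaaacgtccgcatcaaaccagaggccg
A promoter was on hand for 35 of the 44 genes. The metal response core matched in 11 of these 35 (31.4%) and in 25% of 27457 rat promoters, so that a match is common in any promoter. At least 3 matches stood in 1.81% of all promoters, and among the carrier genes in Mt2A with 4, Mt3 with 3 and Slc30a4 with 3. Mt1f had none in its window. AGGTCA matched in 7 of the 35 (20%) and in 15.7% of all promoters. A match is a description of the letters, not a bound site.

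Values are on the log2 scale, from the authors' RMA signals, and levels of different genes are not compared. The array medians lay between 3.10 and 3.25, and no arrays held identical values. The ileal genes Fabp6 (11.84 to 12.21) and Slc10a2 (9.77 to 10.84) were high on every array. Tissue make-up differed between arrays. Of 10 listed fat cell genes 9 were measured, and their mean lay at 6.21 to 7.13 on 4 arrays (3 RYGB, 1 VSG) and at 3.93 to 4.65 on the other 26. Of 15 listed B and plasma cell genes 10 were measured, with a mean of 6.78 to 8.14 on 11 arrays and 4.09 to 5.16 on 19. The high 11 were 1 RYGB, 3 Sham_RYGB, 2 VSG, 3 Sham_VSG and 2 Sham_VSG_PF arrays. Of the 10 measured B and plasma cell genes 0 were higher after RYGB and 0 after VSG, with medians of -1.29 and -0.79. All 9 fat cell genes were higher after RYGB and after VSG, with medians of 1.08 and 0.48. Over all genes 48% and 43.5% were higher. Of 12 listed enterocyte genes 10 were measured, and 10 of 10 were higher after RYGB, by a median of 0.16. Among these 10, Alpi varied widely, with an SD of 3.01 in VSG and 2.46 in Sham_RYGB but 0.66 in Sham_VSG. The enterocyte mean had SDs of 0.37, 0.34 and 0.20 in the same groups. This mean, used below as a covariate, therefore leans on 1 gene, and a list without Alpi was not tested. In bulk tissue fewer cells of a type and less RNA per cell cannot be told apart.

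The comparison of RYGB with Sham_RYGB asked which of these genes differed after the bypass. No carrier gene passed at an adjusted p below 0.05 by limma, 0 of 41 against 0.183% of the 10918 genes tested, and the lowest adjusted p among them was 0.134, for Rbp2. Before adjustment 11 of 41 had a 95% interval of the difference without 0 (26.8%, against 13% of all genes). Of these, 9 lay above 0 (22%, against 6.63%) and 2 below (4.88%, against 6.32%). In sign, 31 were higher and 10 lower after RYGB (75.6% higher, against 48%), with a median difference of 0.19 against -0.01 for all genes. The higher 9 were the Slc30a and Slc39a family genes Slc30a10, Slc30a1, Slc39a3, Slc39a4 and Slc39a5, the thiamine gene Slc19a2, and Rbp2, Rbp4 and Rbp7, and the lower 2 were Mt3 and Slc41a1. The groups overlapped for every one of the 41, against 0.458% of all genes with every RYGB array above and 0.247% with every RYGB array below the sham arrays. The same counts were taken in fits that allowed for tissue make-up. When the 4 fat-rich arrays (those high in fat cell genes) were left out, 3 intervals lay above 0 and 3 below, against 3.53% and 4.35% of all genes. There 31 of 41 were higher, against 47.1%. With the fat cell mean as a covariate 4 lay above and 2 below (4.37% and 4.74%), and 31 were higher, against 46.3%. Among only the arrays low in B and plasma cell genes 5 lay above and 2 below (4.05% and 4.74%), and 26 of 41 were higher, against 45.8% of all genes. With the B and plasma cell mean as a covariate 8 lay above and 2 below (4.74% and 5.18%), and 26 were higher, against 46.9%. With the enterocyte mean as a covariate 4 lay above and 2 below (3.52% and 4.62%), and 25 of 41 were higher, against 44.8%. With the smooth muscle mean as a covariate 13 lay above and 2 below (8.19% and 8.93%), and 31 were higher, against 48.1%.

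The comparison of VSG with Sham_VSG asked the same of the sleeve, which leaves the intestine in place. Here 0 of 41 passed (0% of all genes passed), with a lowest adjusted p of 0.702, for Slc52a2. Unadjusted 95% intervals were without 0 for 6 of 41 (14.6%, against 6.05%): above 0 for Slc52a2, Slc30a10, Cubn and Mt1f (9.76%, against 2.02%), and below 0 for Slc41a1 and Slc39a13 (4.88%, against 4.04%). In sign 30 were higher and 11 lower (73.2% higher, against 43.5%), with a median of 0.09 against -0.03 for all genes. With the B and plasma cell mean as a covariate 21 were higher and 20 lower, against 42.7% of all genes higher. Among only the arrays low in B and plasma cell genes 30 of 41 were higher, against 44.3%. With the enterocyte or the smooth muscle mean as a covariate 30 were higher (against 44.3% and 43.6%). Without the fat-rich arrays, or with the fat cell mean as a covariate, 28 were higher (against 43.7% and 43%). The groups overlapped for all 41, against 0.055% of all genes fully above and 0.22% fully below. The 2 operations have separate sham groups. The interval lay above 0 after both for 1 carrier gene, Slc30a10 (28 of 10918 genes, 0.256%), and below 0 after both for 1, Slc41a1 (60 genes, 0.55%). The sign was shared by 34 of 41 carrier genes and by 6632 of 10918 genes.

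**Figure D1:**
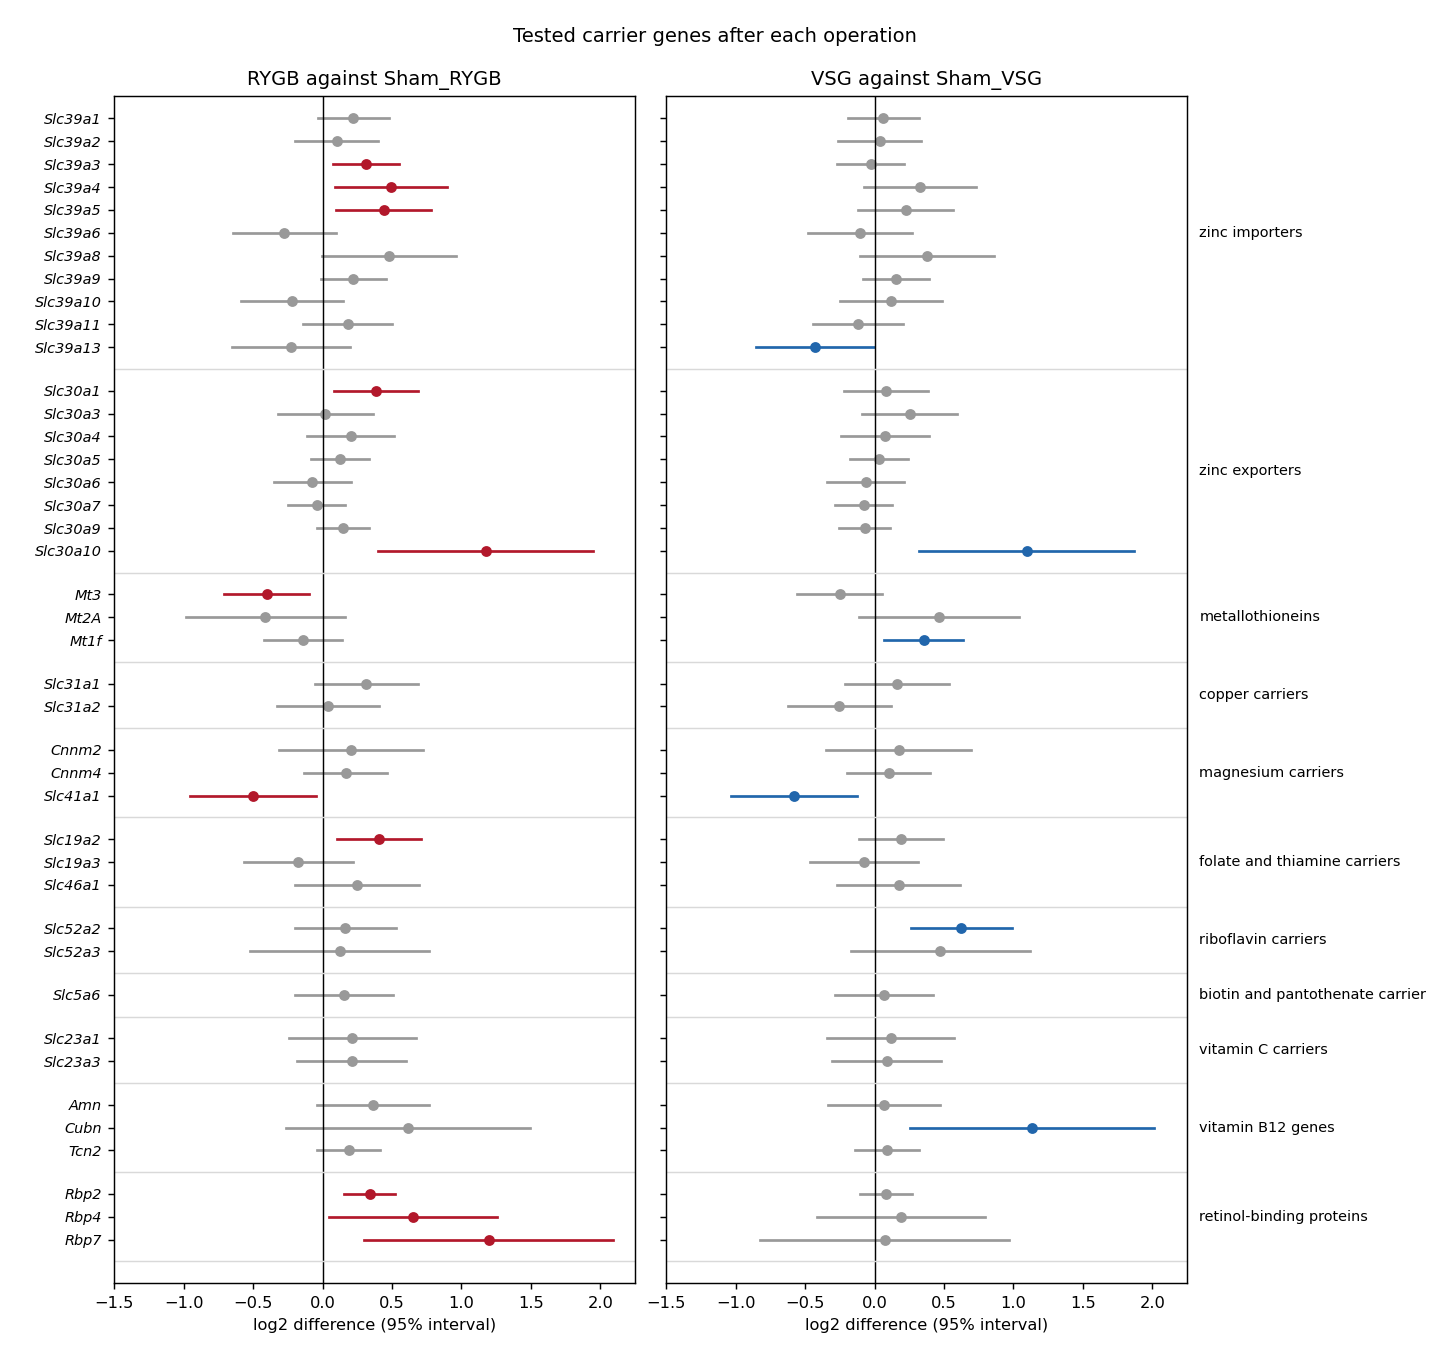
Log2 difference (x axis) of each of the 41 tested carrier genes (y axis, grouped by role) for RYGB against Sham_RYGB (left, red) and VSG against Sham_VSG (right, blue), with 6 rats per group. Points are differences of group means, lines are 95% intervals from limma before adjustment, and coloured genes have intervals without 0. Slc30a10 stands to the right of 0 and Slc41a1 to the left in both panels.

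Among the 8 tested genes of the zinc exporter (Slc30a) family, Slc30a10 had the largest differences. Its protein is known in humans as an exporter of manganese, the loss of which causes manganese overload. Its log2 signal ran from 6.11 over a median of 7.43 to 8.39 in RYGB and from 5.32 over 6.22 to 6.89 in Sham_RYGB. It ran from 6.44 over 7.16 to 7.84 in VSG, from 5.03 over 6.05 to 7.01 in Sham_VSG, and from 4.79 over 5.79 to 6.62 in Sham_VSG_PF. Both operated groups thus lay higher than the 3 sham groups in median, but the ranges overlapped. The lowest RYGB array, at 6.11, lay below the Sham_RYGB median of 6.22. The difference was 1.17 after RYGB (2.26-fold, interval 0.40 to 1.95; adjusted p = 0.212), with 5 of 6 arrays above the sham mean. It was 1.10 after VSG (2.14-fold, 0.32 to 1.87; adjusted p = 0.737), with 6 of 6 above, and 1.33 against the pair-fed shams (2.51-fold, 0.55 to 2.10; adjusted p = 0.579). The RYGB and VSG differences were 0.08 apart (interval -1.02 to 1.17; adjusted p = 0.998). Leaving out each array in turn kept the RYGB difference between 0.96 and 1.42 and the VSG difference between 0.89 and 1.29. With the fat-rich arrays left out they were 1.30 and 1.16, and among the arrays low in B and plasma cell genes 0.80 and 1.24. With the enterocyte covariate they were 0.88 and 1.14. In 1 setting, the smooth muscle covariate, the comparison with pair-fed shams passed, at 1.80 (adjusted p = 0.0278). Of 10 listed smooth muscle genes 5 were measured, and 1 of 5 was higher in VSG than in the pair-fed shams, with a median difference of -0.29. Their mean was 8.26 in VSG and 8.49 in the pair-fed shams, so this covariate itself differed between the groups compared.

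**Figure D2:**
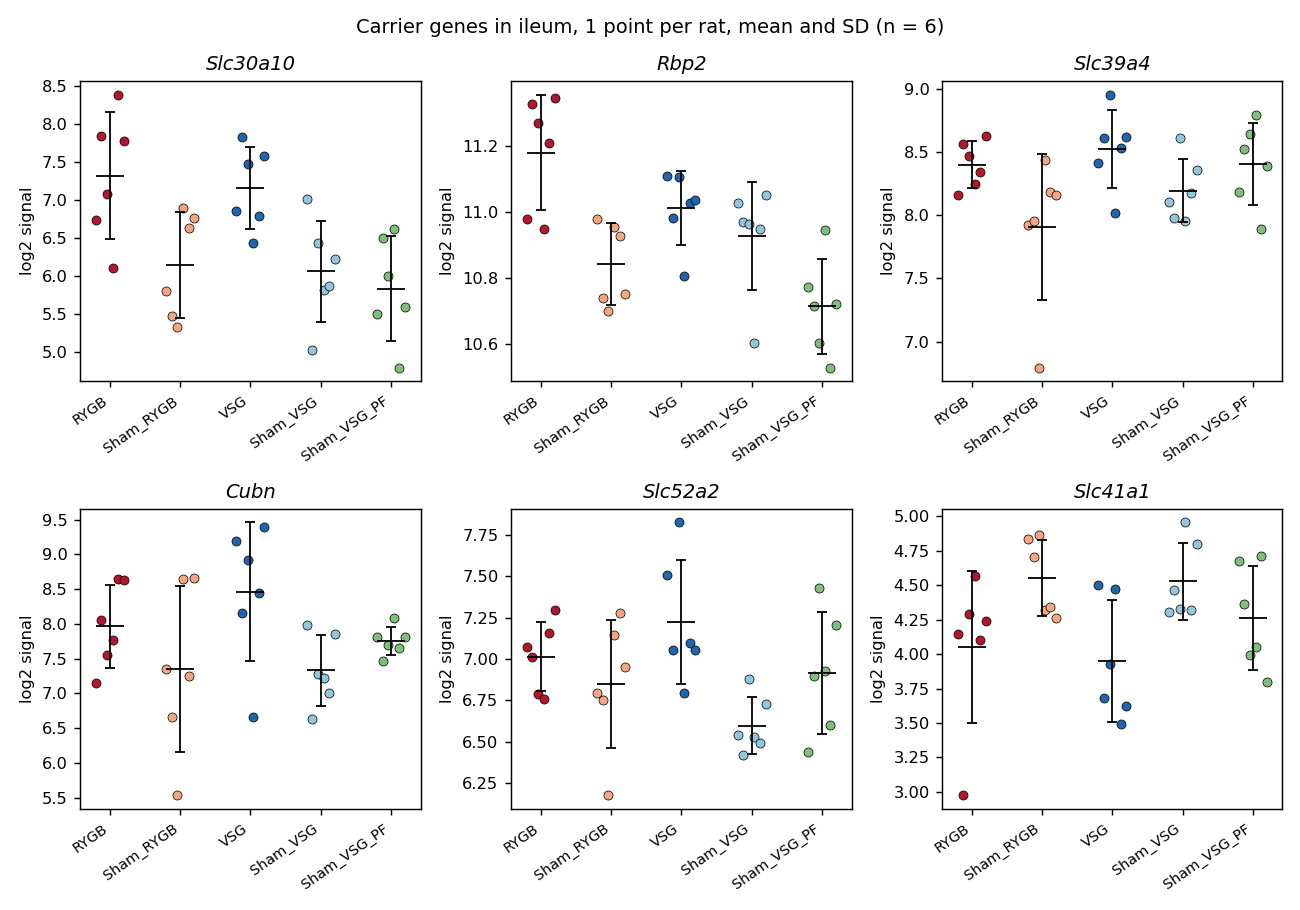
Log2 signal (y axis) of 6 carrier genes in each of the 5 groups (x axis), 1 point per rat, with the mean and SD of 6 rats. Slc30a10 has medians of 7.43 in RYGB and 7.16 in VSG against 5.79 to 6.22 in the shams, and the lowest Slc39a4 point is Sham_RYGB replicate 3, at 6.79.

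Slc30a1 encodes ZnT1, which exports zinc across the basolateral membrane of enterocytes. It ran from 8.37 over 8.53 to 8.75 in RYGB and from 7.84 over 8.16 to 8.57 in Sham_RYGB. All 6 RYGB arrays lay above the sham mean, the difference was 0.39 (interval 0.08 to 0.69), and it did not pass (adjusted p = 0.273). The value was 0.18 among the arrays low in B and plasma cell genes. It was 0.22 with the B and plasma cell mean as a covariate and 0.27 with the enterocyte covariate. After VSG it was 0.09 (adjusted p = 0.911). The exporter genes of the secretory pathway, Slc30a5, Slc30a6 and Slc30a7, differed by 0.13, -0.07 and -0.04 after RYGB and by 0.03, -0.06 and -0.08 after VSG. Slc30a4, of endosomal vesicles, differed by 0.20 and 0.08, and Slc30a3, known from synaptic vesicles, by 0.02 and 0.25. The smallest pooled SD within groups of any carrier gene, 0.145, belonged to Slc30a9, a mitochondrial zinc carrier. It was 0.15 higher after RYGB (adjusted p = 0.489) and 0.07 lower after VSG (log2 difference -0.07; adjusted p = 0.899). Together 6 of 8 exporter genes were higher after RYGB and 5 of 8 after VSG, with medians of 0.14 and 0.05. Over all genes 48% and 43.5% were higher, with medians of -0.01 and -0.03.

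Of the 11 tested zinc importer genes 8 were higher after RYGB and 7 after VSG, with medians of 0.22 and 0.06. Over all genes 48% and 43.5% were higher, with medians of -0.01 and -0.03. Slc39a4 encodes ZIP4, the importer of the enterocyte's luminal membrane whose loss causes the zinc deficiency acrodermatitis enteropathica in humans. It ran from 8.16 over 8.40 to 8.63 in RYGB and from 6.79 over 8.06 to 8.43 in Sham_RYGB, where replicate 3 lay far below the rest. The difference was 0.49 (interval 0.09 to 0.90; adjusted p = 0.294) with that array and 0.27 without it. It was 0.17 among the arrays low in B and plasma cell genes and 0.27 with the enterocyte covariate. After VSG it was 0.33 (adjusted p = 0.835). Slc39a5, the importer of the basolateral membrane, ran from 6.23 over 6.45 to 6.77 in RYGB and from 5.33 over 6.20 to 6.43 in Sham_RYGB. Its difference was 0.44 (interval 0.10 to 0.78; adjusted p = 0.269), or 0.30 without Sham_RYGB replicate 3. It was 0.26 among the arrays low in B and plasma cell genes and 0.23 with the enterocyte covariate. After VSG the Slc39a5 difference was 0.23 (adjusted p = 0.845). Slc39a8, which carries zinc and manganese, had a difference of 0.48 after RYGB (interval -0.00 to 0.96; adjusted p = 0.389) and 0.38 after VSG.

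Slc39a3 encodes a plasma membrane zinc importer. It ran from 5.04 over 5.17 to 5.59 in RYGB and from 4.73 over 4.89 to 5.19 in Sham_RYGB. In the sleeve arm it ran from 4.67 over 4.92 to 5.10 in VSG, from 4.52 over 5.05 to 5.10 in Sham_VSG and from 5.04 over 5.23 to 5.50 in Sham_VSG_PF. The pair-fed shams were thus the highest of the 3 sleeve groups in median, and VSG and the freely fed shams overlapped over most of their ranges. RYGB differed from its sham by 0.31 (interval 0.07 to 0.55; adjusted p = 0.257) and the pair-fed shams from Sham_VSG by 0.34 (0.10 to 0.58; adjusted p = 0.887). VSG differed from Sham_VSG by -0.03 (adjusted p = 0.968). VSG lay 0.37 below the pair-fed shams (log2 difference -0.37, -0.61 to -0.13; adjusted p = 0.596), with 0 of 6 VSG arrays above their mean. The comparisons with pair-fed shams share those arrays. The RYGB effect minus the VSG effect was 0.34 (0.00 to 0.68; adjusted p = 0.851), or 0.087 among the arrays low in B and plasma cell genes.

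Slc39a1 and Slc39a9, importers of the plasma membrane and the Golgi, were both higher by 0.22 after RYGB and by 0.06 and 0.15 after VSG. Slc39a1 was also 0.26 higher in VSG than in pair-fed shams (adjusted p = 0.833). Slc39a11 was at 0.18 and -0.12, and Slc39a2 at 0.10 and 0.04. Slc39a6 and Slc39a10 had differences of -0.28 and -0.22 after RYGB, and -0.11 and 0.12 after VSG. Slc39a13, an importer known for its part in connective tissue, was at -0.23 after RYGB and at -0.43 after VSG (interval -0.85 to -0.00; adjusted p = 0.815).

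All 3 metallothionein genes were lower after RYGB, while after VSG 2 of 3 were higher, with none past the threshold in either comparison. Of all genes 48% were higher after RYGB and 43.5% after VSG. Against the pair-fed shams 1 of 3 was higher in VSG, beside 45.3% of all genes. There Mt1f was at 0.13 and Mt2A at -0.01. Mt2A ran from 8.67 over 9.85 to 10.80 in RYGB, and from 10.04 over 10.18 to 10.60 in Sham_RYGB. It ran from 9.34 over 10.14 to 10.83 in VSG, from 9.38 over 9.74 to 9.96 in Sham_VSG, and from 9.68 over 10.33 to 10.69 in Sham_VSG_PF. RYGB rats spread most widely, with 3 of their arrays below every Sham_RYGB array. Mt2A was lower by 0.41 after RYGB (log2 difference -0.41; adjusted p = 0.531) and higher by 0.47 after VSG (adjusted p = 0.835). Between these effects the difference was -0.88 (interval -1.69 to -0.06; adjusted p = 0.851). Sham_RYGB itself lay 0.54 above Sham_VSG, and this gap enters the -0.88. The RYGB difference was -0.18 without RYGB replicate 3, and ran from -0.60 to -0.18 with each array left out in turn. It was -0.11 with the fat-rich arrays left out and -0.34 among the arrays low in B and plasma cell genes. With the B and plasma cell and the enterocyte covariates it was -0.49 and -0.53.

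Mt1f ran from 9.68 over 10.05 to 10.45 in VSG and from 9.44 over 9.60 to 10.03 in Sham_VSG. In Sham_VSG_PF it ran from 9.625 over 9.892 to 10.372. It ran from 9.52 over 9.86 to 10.21 in RYGB and 9.82 over 10.04 to 10.28 in Sham_RYGB. It was 0.35 higher after VSG (interval 0.07 to 0.64; adjusted p = 0.776), or 0.11 among the arrays low in B and plasma cell genes, and at -0.14 after RYGB (adjusted p = 0.663), the effects being -0.49 apart (-0.89 to -0.10; adjusted p = 0.844). Another 2 clusters are named for Mt1 and Mt1f together, so that the signal of Mt1f may not be free of Mt1. Sham_RYGB lay above Sham_VSG by 0.54 for Mt2A (adjusted p = 0.999), with no overlap between the 6 and 6 arrays, and by 0.33 for Mt1f (interval 0.05 to 0.61; adjusted p = 0.999). Mt2A was the 1 carrier gene of 41 without overlap there, against 0.11% of all genes with Sham_RYGB fully above. These gaps between the shams enter the differences between the RYGB and VSG effects given for both genes.

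Mt3, a metallothionein known mainly from the brain, ran from 4.36 over 4.48 to 4.70 in RYGB and from 4.59 over 4.85 to 5.58 in Sham_RYGB. All 6 RYGB arrays lay below the sham mean, and the difference was -0.40 (interval -0.71 to -0.10; adjusted p = 0.254), or -0.27 without Sham_RYGB replicate 4 and -0.67 among the arrays low in B and plasma cell genes. It was -0.25 after VSG and -0.28 against the pair-fed shams (adjusted p = 0.835 and 0.842).

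**Figure D3:**
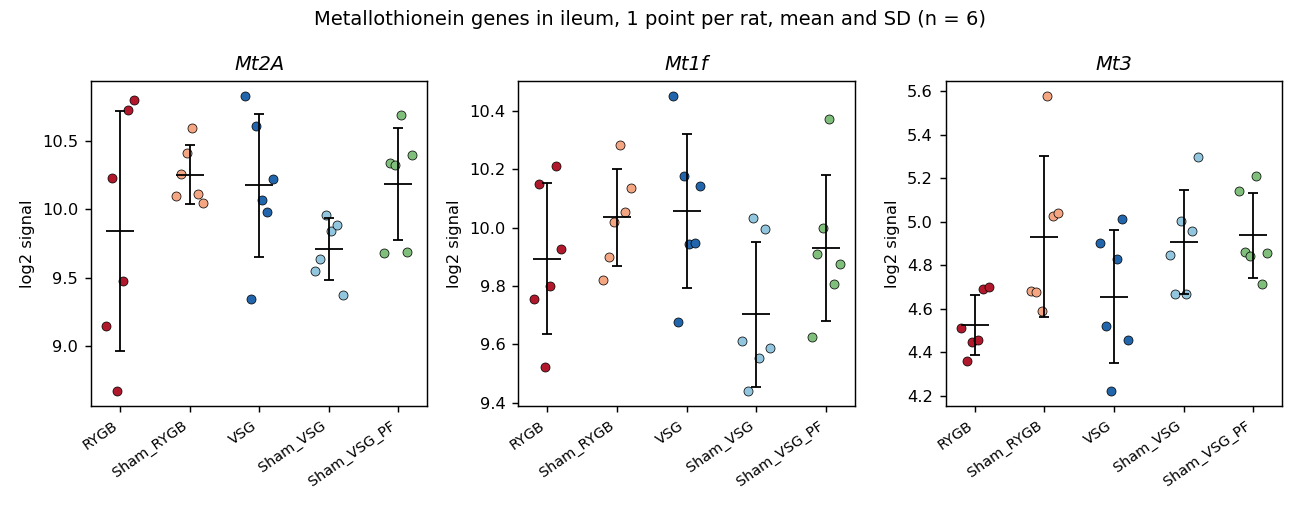
Log2 signal (y axis) of Mt2A, Mt1f and Mt3 in each group (x axis), 1 point per rat, with the mean and SD of 6 rats. Mt2A spreads from 8.67 to 10.80 in RYGB, while Mt3 in RYGB stays between 4.36 and 4.70.

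Neither tested copper gene passed after RYGB or VSG. Slc31a1, the high-affinity copper importer CTR1, was 0.31 higher after RYGB (interval -0.06 to 0.69; adjusted p = 0.465), with all 6 arrays above the sham mean, but 0.13 higher without Sham_RYGB replicate 3 and 0.056 higher among the arrays low in B and plasma cell genes. After VSG it was 0.16 higher (adjusted p = 0.882). Slc31a2, its relative in endosomes, was at 0.04 and -0.25.

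Among the 3 magnesium genes, Slc41a1, a plasma membrane magnesium carrier, was lower after both operations. It ran from 2.97 over 4.19 to 4.57 in RYGB and from 4.26 over 4.52 to 4.86 in Sham_RYGB. It ran from 3.49 over 3.81 to 4.50 in VSG, from 4.30 over 4.40 to 4.96 in Sham_VSG and from 3.80 over 4.21 to 4.71 in Sham_VSG_PF. The RYGB difference was -0.50 (interval -0.96 to -0.05; adjusted p = 0.342), and it was -0.29 without RYGB replicate 2, the lowest array of all 30. After VSG it was -0.58 (-1.03 to -0.12; adjusted p = 0.776), with 0 of 6 arrays above the sham mean, and against the pair-fed shams -0.31 (adjusted p = 0.888). Cnnm4, which moves magnesium out across the basolateral membrane in the intestine, was 0.17 and 0.10 higher after RYGB and VSG, and Cnnm2, known from the kidney, 0.20 and 0.17 higher (lowest adjusted p of the 4 values 0.627).

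For the water-soluble vitamins, the thiamine carrier gene Slc19a2 ran from 7.17 over 7.40 to 7.84 in RYGB and from 6.66 over 7.03 to 7.42 in Sham_RYGB. All 6 RYGB arrays were above the sham mean, and the difference was 0.41 (interval 0.10 to 0.71; adjusted p = 0.249). It was 0.19 after VSG (adjusted p = 0.846). Slc19a3, another thiamine carrier, was at -0.17 and -0.08, so the 2 thiamine genes had opposite signs, with neither past the threshold. Slc46a1, the proton-coupled carrier that absorbs folate, was at 0.25 and 0.17 (adjusted p = 0.627 and 0.898), and the VSG value was -0.02 without VSG replicate 1.

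The riboflavin carrier gene Slc52a2 had the smallest p of the carrier genes after VSG. It ran from 6.80 over 7.08 to 7.83 in VSG and from 6.42 over 6.53 to 6.88 in Sham_VSG, and only the lowest VSG array lay within the sham range. The difference was 0.62 (1.54-fold, interval 0.26 to 0.99; adjusted p = 0.702), between 0.50 and 0.71 with each array left out in turn. Pair-fed shams lay between, from 6.44 over 6.91 to 7.43, with 0.31 to VSG and 0.32 to Sham_VSG (adjusted p = 0.865 and 0.927). After RYGB the difference was 0.16 (adjusted p = 0.697), and the RYGB minus VSG effect was -0.46 (interval -0.97 to 0.05; adjusted p = 0.877). Slc52a3, the riboflavin carrier of the luminal membrane, was at 0.12 after RYGB and 0.47 after VSG (adjusted p = 0.885 and 0.843). Slc5a6, which absorbs biotin and pantothenate, was at 0.15 and 0.07. Slc23a1, the luminal vitamin C carrier, was at 0.21 and 0.12, and Slc23a3, its relative by sequence, at 0.21 and 0.09.

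Vitamin B12 bound to intrinsic factor is taken up in the ileum by a receptor made of cubilin (Cubn) and amnionless (Amn), and transcobalamin (Tcn2) carries the vitamin onwards in blood. Cubn ran from 6.66 over 8.68 to 9.40 in VSG and from 6.63 over 7.25 to 7.99 in Sham_VSG. Of the 6 VSG arrays 5 lay above every sham array and 1 at the bottom of their range. The difference was 1.13 (2.20-fold, interval 0.26 to 2.01; adjusted p = 0.776), and 0.71 against the pair-fed shams, which ran from 7.46 over 7.75 to 8.08 (adjusted p = 0.865). In RYGB Cubn ran from 7.14 over 7.91 to 8.64, and in Sham_RYGB from 5.53 over 7.30 to 8.66, a difference of 0.62 (adjusted p = 0.538). That value was 0.25 without Sham_RYGB replicate 3, -0.18 among the arrays low in B and plasma cell genes and 0.22 with the enterocyte covariate. Amn was 0.36 higher after RYGB (interval -0.04 to 0.77; adjusted p = 0.435), but 0.19 without Sham_RYGB replicate 3. It was 0.035 among the arrays low in B and plasma cell genes and 0.12 with the enterocyte covariate. Amn was at 0.07 after VSG, and Tcn2 was at 0.19 and 0.09.

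All 3 tested retinol-binding protein genes were higher after RYGB, beside 48% of all genes. Rbp2, which binds retinol in absorptive cells before it is esterified for chylomicrons, ran from 10.95 over 11.24 to 11.35 in RYGB and from 10.70 over 10.84 to 10.98 in Sham_RYGB. All 6 RYGB arrays were above the sham mean, with an overlap of 2 RYGB arrays with the sham range. The difference was 0.34 (1.26-fold, interval 0.15 to 0.52; adjusted p = 0.134), between 0.30 and 0.38 with each array left out in turn. It was 0.32 without the fat-rich arrays, 0.35 among those low in B and plasma cell genes and 0.28 with the enterocyte covariate. VSG arrays, from 10.81 over 11.03 to 11.11, lay 0.08 above Sham_VSG (10.60 over 10.97 to 11.05; adjusted p = 0.879) and 0.30 above the pair-fed shams (10.53 over 10.72 to 10.95; interval 0.11 to 0.48; adjusted p = 0.580). The pair-fed shams lay 0.21 below the freely fed ones (log2 difference -0.21, -0.40 to -0.03; adjusted p = 0.887). The last 2 comparisons share the pair-fed arrays.

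Rbp4 is the retinol carrier of blood that liver and fat secrete, and Rbp7 a retinol-binding protein of fat and endothelium. Rbp7 was high where fat cell genes were high, while Rbp4 was not set apart in this way. Rbp7 was at 4.56 to 6.10 on the 4 arrays high in fat cell genes and at 2.30 to 4.08 on the other 26. On the same sets of arrays Rbp4 was at 5.35 to 5.99 and 4.13 to 5.91, so its ranges overlapped. The 5.91 was on 1 of the 3 RYGB arrays low in fat cell genes. Rbp7 ran from 2.94 over 4.08 to 5.17 in RYGB and from 2.45 over 2.84 to 3.20 in Sham_RYGB, and in VSG from 2.29 over 2.92 to 6.10. Its RYGB difference of 1.20 (2.29-fold, interval 0.30 to 2.09; adjusted p = 0.252) was 0.39 without those 4 arrays and 0.09 with the fat cell mean as a covariate. Its VSG difference of 0.07 was -0.48 without VSG replicate 1. Rbp4 ran from 4.25 over 5.58 to 5.99 in RYGB and from 4.13 over 4.53 to 5.45 in Sham_RYGB. Its difference of 0.65 (interval 0.04 to 1.26; adjusted p = 0.352) was 0.24 without those arrays and 0.12 with the covariate. Rbp2 was at 10.98 to 11.35 on the 3 RYGB arrays high in fat cell genes and at 10.95 to 11.33 on the 3 low ones.

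**Figure D4:**
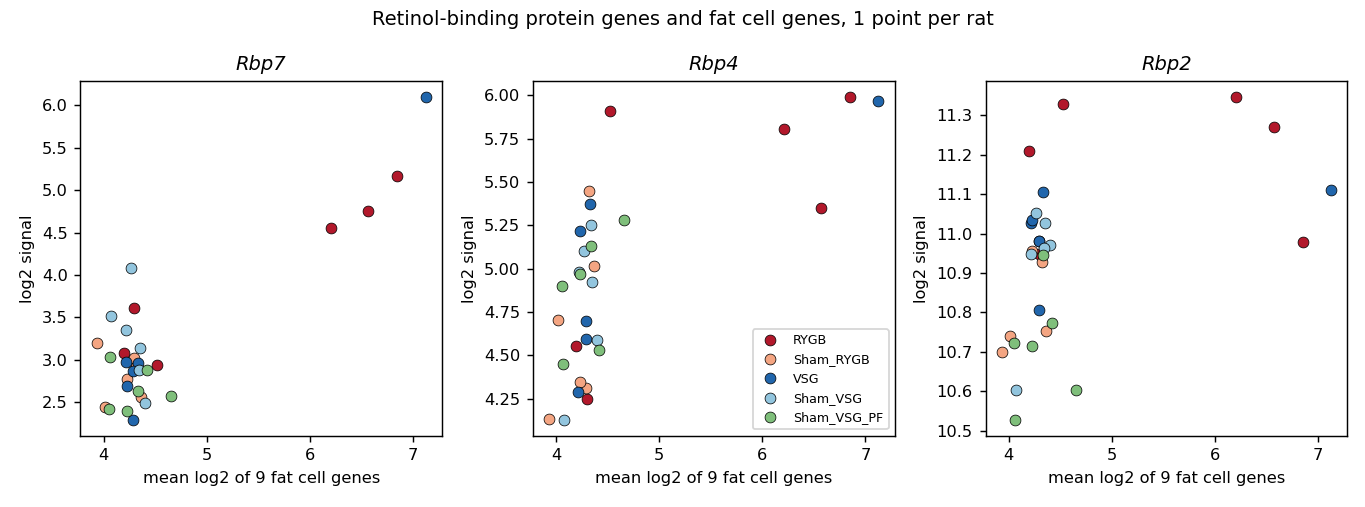
Log2 signal of Rbp7, Rbp4 and Rbp2 (y axes) against the mean log2 signal of 9 fat cell genes (x axes), 1 point per rat, coloured by group. The 4 arrays on the right, 3 RYGB and 1 VSG, hold Rbp7 at 4.56 to 6.10, above the 26 on the left.

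The pooled SD within groups had a median of 0.315 over the 41 carrier genes and of 0.262 over all tested genes, and was largest for Rbp7, at 0.805. Correlations across rats were taken on deviations from the group means over 30 arrays, for 5 pairs, with permutation tests within groups (100000 permutations) adjusted over the 5. Mt1f and Mt2A, a pair added after the data were seen, had r = 0.77 (rho = 0.79; both p = 1e-05, the smallest these permutations can give, adjusted p = 5e-05). Without the 2 arrays farthest from the median r was 0.74, and within the 19 arrays low and the 11 high in B and plasma cell genes 0.82 and 0.84 (permutation p = 0.00033 and 0.202). Rbp2 and Slc39a4 had r = 0.57 (rho = 0.54; permutation p = 0.00025 and 0.00291, adjusted p = 0.000625 and 0.00422). It was 0.59 without the 2 farthest arrays, and 0.65 and 0.50 within the low and high arrays (permutation p = 0.00547 and 0.132).

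Cubn and Amn, the receptor's 2 parts, had r = 0.58 (rho = 0.53; permutation p = 0.00053 and 0.00338, adjusted p = 0.000883 and 0.00422), and 0.40 without the 2 farthest arrays. Within the low arrays r was 0.05 and within the high ones 0.87 (permutation p = 0.854 and 0.00676), so the relation did not hold among the 19 low arrays. The 11 high arrays held only 1 to 3 of each group. After the group means are removed, few free values and few orders to permute remain, so the 0.87 and its p are weak evidence. For Slc39a4 and Slc30a1, the luminal importer and the basolateral exporter, r was 0.52 (rho = 0.59; permutation p = 0.00767 and 0.00177, adjusted p = 0.00959 and 0.00422), and 0.55 without the 2 farthest. Within the low and high arrays it was -0.38 and -0.18 (permutation p = 0.15 and 0.528), so it did not hold within either set. Mt2A and Slc30a1, both known targets of MTF1 whose promoters are printed above, had r = -0.04 (rho = 0.02; permutation p = 0.809 and 0.907, adjusted p = 0.809 and 0.907), 0.02 without the 2 farthest arrays, and -0.25 and -0.22 within the 2 sets (permutation p = 0.374 and 0.375).

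The same counts were taken for VSG against pair-fed shams, for the shams against each other and for the RYGB effect minus the VSG effect. For VSG against pair-fed shams 0 of 41 passed (0% of all genes passed). Intervals were without 0 for 4 (9.76%, against 5.94% of all genes), above 0 for Slc30a10, Rbp2 and Slc39a1 (2.56% of all genes) and below for Slc39a3 (3.39%). In sign 27 were higher (65.9%, against 45.3%). No carrier gene was without overlap (0.11% of all genes fully above, 0.156% fully below). For pair-fed against freely fed shams 0 passed (0%), 3 intervals were without 0 (7.32%, against 5.33%), 1 above (Slc39a3) and 2 below (Rbp2 and Slc30a9), against 2.46% and 2.87%. In sign 24 were higher (58.5%, against 46.8%), and none was without overlap (0.156% and 0.147% of all genes). Between the 2 sham operations 0 passed (0%), 2 intervals were without 0 (4.88%, against 4.71%), 1 above (Mt1f) and 1 below (Slc30a9, log2 difference -0.20, adjusted p = 0.999), against 1.69% and 3.01%. In sign 16 were higher (39%, against 44.5%), and 0 lay fully below (0.156% of all genes). For the RYGB effect minus the VSG effect 0 passed (0%), 3 intervals were without 0 (7.32%, against 5.72%), 1 above (Slc39a3) and 2 below (Mt1f and Mt2A), against 3.49% and 2.23%. In sign 30 were higher (73.2%, against 52.4%).

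Related genes outside the carrier families also gave 0 past the threshold in the 6 comparisons. Of 22 listed zinc and copper handling genes 20 were measured, and after RYGB 11 were higher and 9 lower, with intervals above 0 for 2 and below for 3, beside 48% of all genes higher and 6.63% and 6.32% with intervals above and below 0. Among them Atox1, a copper chaperone, was at -0.29 and Sco1, which inserts copper into cytochrome oxidase, at 0.42 (adjusted p = 0.203 and 0.254). Trpm6, a magnesium channel, was 0.66 higher in VSG than in pair-fed shams (adjusted p = 0.609). Of 25 listed retinoid genes 14 were measured, 6 higher and 8 lower after RYGB, with Dgat1, which makes triglycerides and retinyl esters, at 0.39 (adjusted p = 0.290). Of 40 listed water-soluble vitamin genes 19 were measured, 6 higher and 13 lower after RYGB, with 0 intervals above 0 and 1 below, beside the same shares of all genes. That 1 was Shmt1, a folate enzyme, at -0.29 after RYGB and -0.31 after VSG (adjusted p = 0.324 and 0.776).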

How the data were processed

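Per the labels' protocols, ileal RNA was purified on RNeasy columns with DNA digestion, and an Ovation PicoSL kit and a biotin module made the labelled target for 1-colour Affymetrix arrays. The deposited log2 signals were computed by the authors by RMA (Affymetrix Expression Console, version 1.3.0.187), per the submitters' processing notes. Which arrays were normalized together is not given in the sources used here, and no detection calls or scan dates were used.

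Of 36685 transcript clusters, 14824 carried 1 symbol, 829 several and 21032 none. The brightest cluster per symbol was kept, and symbols with a mean below the 25th percentile (log2 2.33) were left out, which left 10918. In limma 3.58.1 (R 4.3.3) 1 linear model over the 30 arrays held 5 group means (empirical Bayes, 25 residual degrees of freedom), with two-sided p-values adjusted by Benjamini and Hochberg within each of 6 comparisons at 0.05. Intervals are 95% and unadjusted. The number of arrays limits the precision: the median interval reached 0.31 to either side. The procedure was tested on simulated data. Figures used matplotlib 3.10.9 in Python 3.11.15.

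The members, lists and tests were chosen with earlier results of these data known. Named with values were, per comparison, the 5 carrier genes with the smallest p, those past the threshold, those of largest and smallest SD within groups, and known intestinal carriers. Other genes are given by their differences. Same-numbered rats did not deviate together in every pair, so the numbers were not taken to pair the rats. Lists of fat, B and plasma, enterocyte and smooth muscle genes were used as covariates or to leave out arrays, part of these settings chosen after seeing the data.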

Additional observations from a re-analysis of the deposited data

Results flagged for a closer look

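In groups of 6 rats, 1 array stood apart (a gap to its nearest neighbour of more than 0.625 of the group's range) in 6 of 140 sets of gene and group, and chance flags about 1 set in 20. Rbp2 was lowest in Sham_VSG replicate 4, at 10.60, and Slc39a4 in Sham_RYGB replicate 3, at 6.79. Slc41a1 was lowest in RYGB replicate 2, at 2.97, and Slc39a11 in VSG replicate 4, at 5.62. Rbp7 was highest in VSG replicate 1, at 6.10, the array that was also high in fat cell genes. Slc39a1 was highest in Sham_VSG replicate 3, at 6.43.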

How the results depend on the processing

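No carrier gene passed in the main settings, and none passed in 16 other settings or with any array left out, in any of the 6 comparisons, but for 1 gene in VSG against Sham_VSG_PF with the smooth muscle covariate (Slc30a10, log2 difference 1.80; the cause was not tested). The settings covered normalization, filters, variance models, array weights, an adjusted p below 0.10, arrays in the fit and tissue lists, and those with fat cell and enterocyte lists or only B-low arrays were chosen after seeing the data. With the replicate number as a block (replicate block) 0 carrier genes passed in each comparison. Across 66 named differences, 1800 of 1835 alternative values kept direction and call, and 34 turned in 15 of them. As none passed in the main settings, keeping the call meant only not passing. After RYGB, Rbp2, Slc30a10 and Slc19a2 kept unadjusted intervals without 0 in 15 of 15 settings and 12 of 12 fits with an array left out. Slc39a4 and Slc39a5 kept them in 11 of 15 and 11 of 12. For Slc41a1 these counts were 10 of 14 and 8 of 12, and for Rbp4 8 of 15 and 5 of 12.

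After RYGB, with the B and plasma cell covariate, Slc52a3 was at -0.15 and Slc5a6 at -0.018. Among only the arrays low in B and plasma cell genes Slc19a3 was at 0.028, Slc23a1 at -0.069, Slc52a2 at -0.060, Slc52a3 at -0.15, Slc5a6 at -0.067 and Cubn at -0.18. With the enterocyte covariate Slc23a1 was at -0.081, Slc52a2 at -0.038, Slc52a3 at -0.21 and Slc5a6 at -0.030. With each array left out in turn Slc52a3 ran from -0.040 to 0.30, turning without RYGB replicate 5 or Sham_RYGB replicate 3.

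After VSG, array quality weights put Rbp7 at -0.036. The B and plasma cell covariate put Slc30a1 at -0.027, Cnnm4 at -0.0058, Slc5a6 at -0.049 and Amn at -0.071. Without the fat-rich arrays Slc46a1 was at -0.022 and Rbp7 at -0.48, and with the fat cell covariate Rbp4 was at -0.00811 and Rbp7 at -0.35. Among only the arrays low in B and plasma cell genes Slc19a3 was at 0.068, Amn at -0.046, Rbp4 at -0.24 and Rbp7 at -0.70. With each array left out in turn Slc46a1 ran from -0.022 to 0.31, Rbp7 from -0.48 to 0.28, Slc19a3 from -0.20 to 0.0089, Slc23a1 from -0.022 to 0.29, Slc30a1 from -0.0048 to 0.18 and Amn from -0.020 to 0.16. The cause of these turns was not tested.

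For the correlations, Mt2A with Slc30a1 was 0.022 by rho and 0.023 without the 2 farthest arrays. Within the arrays low and high in B and plasma cell genes Slc39a4 with Slc30a1 was -0.38 and -0.18. Within the low arrays Cubn with Amn was 0.047, and within the high arrays Rbp2 with Slc39a4 was 0.50 and Mt1f with Mt2A 0.84, with 11 arrays spread over 5 groups. A pair of Slc46a1 with Slc19a1 and one of Mt1 with Mt2A could not be run for want of a cluster. With no detection calls, low signals, such as that of Slc39a2, cannot be told from background.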
